A study of Mus musculus with 12 samples.

Results

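The fraction by treatment interaction asks whether the difference between Tom+ and Tom- hepatocytes depended on treatment, and it was computed for each gene as Tom+ minus Tom- in CCl4 minus the same difference in oil. All 12 of the 12 bulk RNA-seq libraries of the series entered it, in 4 groups of 3. The groups were Tom- and Tom+ hepatocytes of oil-treated mice and Tom- and Tom+ hepatocytes of CCl4-treated mice, all sorted by flow cytometry from livers of male p16-Tom mice on a C57BL/6 background. In these mice a tamoxifen-inducible Cre driven by the p16 (Cdkn2a) locus switches on tdTomato, so that Tom+ cells are those whose p16 activity was high enough for labeling when tamoxifen was present, and Tom- cells carry the same alleles without that label. CCl4 was given in corn oil, and the oil groups received the vehicle. The schedule drawn for the isolation of these cells gives tamoxifen to the mice. The labels do not say whether libraries with the same number came from the same mouse or whether a library pools mice, and p-values measure the spread between these libraries.

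Hepatocytes differ along the liver lobule. Those around the central vein (zone 3) are kept under Wnt signalling, make glutamine through Glul and carry most of the cytochrome P450 that turns CCl4 into a reactive radical. Those around the portal vein (zone 1) do most of the urea synthesis and amino acid breakdown. In bulk libraries such as these, fewer cells of a type and less RNA per cell cannot be told apart.

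The libraries held 37568669 to 75331523 counts. The interaction was computed with 2 sets of labels because the tdTomato reporter went against 2 labels. It was at 1794, 157 and 143 CPM (counts scaled to library size with TMM) in Tom- oil, 1546, 135 and 1225 in Tom+ oil, 123, 263 and 119.7 in Tom- CCl4 and 1343, 1316 and 1369 in Tom+ CCl4. Hence Tom- oil replicate 1, as labelled, sat at the Tom+ level, and Tom+ oil replicate 2 at the Tom- level. The labels were therefore used as deposited, and again with those of these 2 libraries exchanged. Whether the tubes or names were in fact exchanged was not tested, and since the reporter chose the exchange, its own interaction is not evaluated. The 15 hepatocyte markers summed to 128581 to 179954 CPM per library, and none was at 0 in any group.

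**Figure D1:**
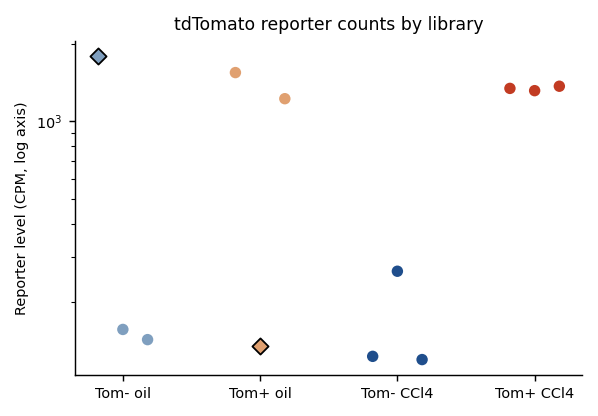
Reporter level (CPM, log axis) in each of the 12 libraries, by deposited group. Diamonds with a black edge mark the libraries labelled Tom- oil replicate 1 (1794 CPM) and Tom+ oil replicate 2 (135 CPM), which lie on the other side of the gap between the fractions.

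Under the deposited labels 201 of 17121 genes (1.17%) had an interaction past an adjusted p-value of 0.05 and a log2 value of 0.75 (edgeR quasi-likelihood test, Benjamini-Hochberg adjustment over all genes), 37 higher (0.216%) and 164 lower (0.958%). With the 2 oil labels exchanged there were 120 (0.701%), 56 higher (0.327%) and 64 lower (0.374%). In all, 40 genes (0.234% of those tested) were called in both with the same sign, which is 19.9% of the deposited list and 33.3% of the exchanged list, and no gene was called with opposite signs. Of these 40 kept genes 9 were higher (0.0526% of those tested) and 31 lower (0.181%), where higher means that Tom+ minus Tom- was greater in CCl4 than in oil, and lower that it was smaller. Both fits share 10 libraries with the same label, hence a gene called in both is not supported by independent samples. Among the kept lower genes were enzymes of amino acid breakdown that periportal hepatocytes are known for and genes known from blood vessel endothelium, and among the kept higher genes were the cell cycle inhibitor Cdkn1c and the annexin Anxa2.

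**Figure D2:**
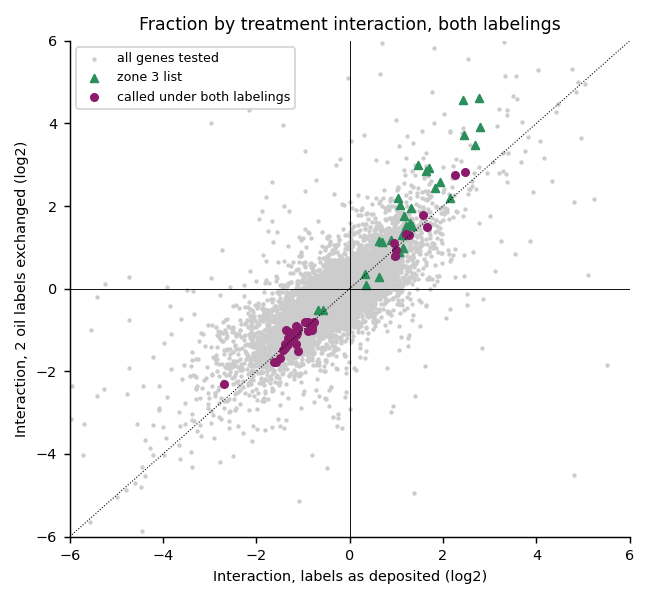
Interaction of every gene tested (log2) with the labels as deposited (x axis) and with 2 oil labels exchanged (y axis); 16 genes lie outside the axes. The 40 genes called under both labelings (purple) lie along the dotted line of equal values, whereas most zone 3 genes (green triangles) lie above it.

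Of the 27 function lists, the one on amino acid breakdown held the most kept genes. Of the 52 tested genes of the urea cycle and amino acid catabolism list, 5 were kept, all lower (9.62%, against 0.181% of all genes kept lower): Ftcd, Sds, Sdsl, Gls2 and Amdhd1. The list as a whole was not lower, with a median interaction of -0.0085 as deposited and -0.12 with the exchange (all genes: -0.0059 and -0.017), 25 positive and 27 negative members as deposited and 20 and 32 with the exchange. Cdo1 and Csad were called higher as deposited only, Oat higher with the exchange only, and Asl, Ass1 and Etnppl lower with the exchange only. Aspg, an asparaginase outside that list, was kept lower as well. Ftcd (ENSMUSG00000001155, chr10:76575648-76590338), which passes the formimino group of histidine on to folate, was steady except in Tom+ CCl4. It stood at 486, 421 and 415 CPM in Tom- oil, 529, 479 and 482 in Tom+ oil, 468, 503 and 415 in Tom- CCl4 and 240.4, 204 and 172 in Tom+ CCl4. The highest Tom+ CCl4 library was below every other library, whereas the oil groups overlapped as deposited and with the exchange Tom+ was above Tom- in oil. The interaction was -1.34 ± 0.17 with the labels as deposited (adjusted p = 0.00738) and -1.36 ± 0.17 with the exchange (adjusted p = 0.00643), as log2 values with SE. In what follows, a pair of interactions gives the deposited labels first and the exchange second. Sds (ENSMUSG00000029597, chr5:120476526-120483932), serine dehydratase, turns serine into pyruvate for gluconeogenesis. Sds was at 388, 282 and 307 CPM in Tom- oil, 415, 318 and 377 in Tom+ oil, 264, 300.3 and 198 in Tom- CCl4 and 125, 92.7 and 72.9 in Tom+ CCl4. It was thus lowest in Tom+ CCl4, and Tom- CCl4 overlapped the lower oil libraries. The interaction was -1.57 ± 0.29 with the labels as deposited (adjusted p = 0.0276) and -1.77 ± 0.25 with the exchange (adjusted p = 0.00975). Aspg (ENSMUSG00000037686, chr12:112106679-112127559) had 9 libraries close together and Tom+ CCl4 apart. Aspg was at 204, 204 and 166 CPM in Tom- oil, 191, 194 and 179 in Tom+ oil, 198, 250.1 and 185 in Tom- CCl4 and 91.3, 75.2 and 69.2 in Tom+ CCl4. Mean levels were 211 ± 34.6 CPM in Tom- CCl4 and 78.6 ± 11.4 in Tom+ CCl4 (SD, n = 3 each), and the interaction was -1.4 ± 0.19 with the labels as deposited (adjusted p = 0.00738) and -1.45 ± 0.19 with the exchange (adjusted p = 0.00643).

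Gls2 (ENSMUSG00000044005, chr10:128194457-128210004), the liver glutaminase that releases ammonia for urea synthesis, followed the same order. Gls2 was at 564, 414 and 376 CPM in Tom- oil, 685, 556 and 467 in Tom+ oil, 488, 491 and 340.0 in Tom- CCl4 and 252, 214 and 169.5 in Tom+ CCl4. The Tom+ CCl4 libraries were below all others, and its interactions were -1.39 ± 0.29 and -1.4 ± 0.29 (adjusted p = 0.0407 and 0.0473). Amdhd1 (ENSMUSG00000015890, chr10:93523338-93540033), an imidazolonepropionase of histidine breakdown, was low in both CCl4 groups and lowest in Tom+. It was at 170.0, 167 and 145 CPM in Tom- CCl4 and 111, 103 and 84.3 in Tom+ CCl4, whereas the 6 oil libraries spanned 211 to 287. The interactions were -0.81 ± 0.19 and -1.01 ± 0.15 (adjusted p = 0.0487 and 0.00975). Sdsl (ENSMUSG00000029596, chr5:120458186-120472810), the serine dehydratase-like neighbour of Sds, was at 9.18, 9.46 and 7.73 CPM in Tom- CCl4 and 4.26, 3.67 and 4.26 in Tom+ CCl4, with oil libraries between 9.902 and 15.9. Its interactions were -1.11 ± 0.25 and -1.51 ± 0.19 (adjusted p = 0.0477 and 0.00643).

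Sds, Sdsl, the antisense transcript Gm15690 (chr5:120479842-120480903) and Plbd2 (ENSMUSG00000029598, chr5:120483282-120503625) are neighbours on chromosome 5, and all 4 were kept lower. Gm15690 lies opposite to Sds exons and Plbd2 overlaps the end of Sds on the other strand. The libraries were made strand-specific, but the sources used here do not say whether counting used the strand, so that reads of these overlapping genes may have been shared. Their counts were not whole numbers in 10 (Sds), 9 (Gm15690) and 6 (Plbd2) of the 12 libraries, and in none for Sdsl. Plbd2, a lysosomal phospholipase B-like protein, was at 128, 140.4 and 108 CPM in Tom- CCl4 and 75.7, 70.5 and 68.7 in Tom+ CCl4, with interactions of -0.81 ± 0.14 and -0.92 ± 0.13 (adjusted p = 0.0172 and 0.00927). For Gm15690 they were -1.63 ± 0.27 and -1.78 ± 0.24 (adjusted p = 0.0205 and 0.00918).

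**Figure D3:**
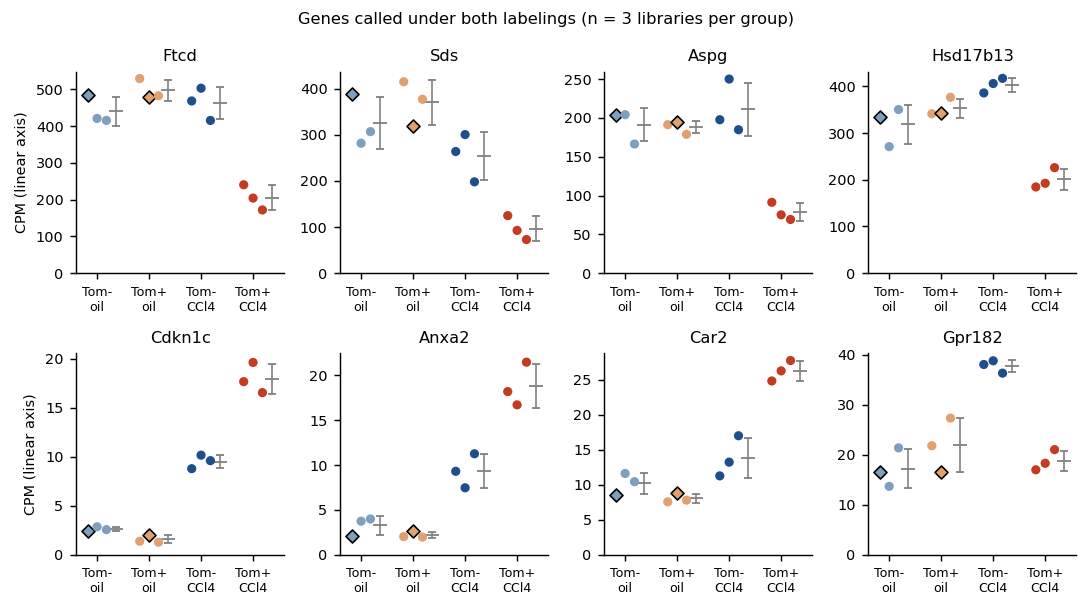
Levels (CPM, linear axes from 0) of 8 genes called under both labelings in each library, by deposited group, with the mean and SD of the 3 libraries beside them. Diamonds mark the 2 libraries whose labels were exchanged; in each panel the Tom+ CCl4 libraries are apart from the Tom- CCl4 libraries, and the diamonds lie among or near the other oil libraries.

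Further kept genes were lower in Tom+ CCl4 than in Tom- CCl4 too, and which cells made their RNA here was not tested. Hsd17b13 (ENSMUSG00000034528, chr5:103955440-103977410), a lipid droplet protein of hepatocytes and a member of the zone 1 list, was at 334, 271 and 350.3 CPM in Tom- oil, 341, 342 and 376 in Tom+ oil, 386, 406 and 417 in Tom- CCl4 and 185, 192 and 226 in Tom+ CCl4. The CCl4 fractions stood on either side of the oil range. Its interaction was -1.15 ± 0.16 with the labels as deposited (adjusted p = 0.00738) and -1.13 ± 0.16 with the exchange (adjusted p = 0.00918). Hgfac (ENSMUSG00000029102, chr5:35041509-35048461), a serum protease that activates hepatocyte growth factor, had the same shape. Hgfac was at 368, 386 and 393 CPM in Tom- oil, 355, 403 and 409 in Tom+ oil, 505, 521 and 462 in Tom- CCl4 and 276, 265 and 278 in Tom+ CCl4. Tom- CCl4 was above and Tom+ CCl4 below every oil library, and the interactions were -0.89 ± 0.12 and -0.8 ± 0.12 (adjusted p = 0.00738 and 0.00975). Hsd11b1 (ENSMUSG00000016194, chr1:193221634-193264075), which regenerates active glucocorticoid, was at 558, 548 and 454 CPM in Tom- CCl4 and 316, 322 and 299.5 in Tom+ CCl4, with interactions of -0.77 ± 0.16 and -0.82 ± 0.16 (adjusted p = 0.0396 and 0.0341). Angptl6 (ENSMUSG00000038742, chr9:20873808-20879727), a secreted angiopoietin-like factor, was higher in Tom- CCl4 (14.3, 18.2 and 19.8 CPM) than in any other group, and Tom+ CCl4 (7.46, 7.55 and 8.89) was near oil (6.63 to 8.42). Its interactions were -1.32 ± 0.19 and -1.2 ± 0.2 (adjusted p = 0.00773 and 0.0211). Pde4c, a cyclic AMP phosphodiesterase, was at 29.5, 33.5 and 33.9 CPM in Tom- CCl4 and 17.8, 14.1 and 16.6 in Tom+ CCl4, with interactions of -1.12 ± 0.17 and -1.07 ± 0.18 (adjusted p = 0.0102 and 0.0185). Cryl1, a dehydrogenase of sugar acids, was at 22.8, 19.5 and 18.8 CPM in Tom- CCl4 against 13.7, 10.5 and 11.02 in Tom+ CCl4, with interactions of -0.9 ± 0.2 and -1.03 ± 0.19 (adjusted p = 0.0477 and 0.0269).

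Other kept lower genes were named after their values were seen and are given by range. Vamp2, a vesicle fusion protein, spanned 15.1 to 22.1 CPM in Tom- CCl4 and 8.91 to 10.7 in Tom+ CCl4. Fam193b spanned 61.2 to 80.1 and 27.2 to 38.2, Zfp715, a zinc finger gene, 12.3 to 14.9 and 7.41 to 8.78, and Amotl1, a junction protein of the Hippo pathway, 12.4 to 14.7 and 5.21 to 7.85. In each of these genes the fractions did not overlap in CCl4 but overlapped in oil under the deposited labels, and the interactions ranged from -1.23 (Amotl1) to -0.84 (Zfp715) there. The other members were mt-Co3 and transcripts not annotated as protein coding, most of them with less certain counting. mt-Co3 (chrMT:8607-9390 of the mitochondrial chromosome), a subunit of cytochrome c oxidase, spanned 3336 to 4571 CPM in Tom- CCl4 and 1842 to 2246 in Tom+ CCl4, with interactions of -1.22 ± 0.22 and -1.1 ± 0.23 (adjusted p = 0.0222 and 0.0482). It shares an exon stretch with mt-Atp6, and the unprocessed pseudogene Gm28438 (chr1:24612775-24613119) spanned 463 to 505 CPM in Tom- CCl4 and 197 to 231 in Tom+ CCl4. Counts of both were fractional in most libraries, 9 and 10 of 12. BC024386 (chr7:140906014-140907983, a processed transcript) spanned 309.5 to 437 CPM in Tom- CCl4 and 145 to 174 in Tom+ CCl4. Gm42109, which lies opposite to Afm exons, spanned 23.8 to 31.96 and 12.9 to 14.1, and Gm21781, a long noncoding RNA, 1.49 to 2.56 and 0.369 to 0.522. Counts of BC024386 and Gm42109 were fractional in 10 and 8 libraries, and those of Gm21781 in none. Among the protein-coding genes given elsewhere, counts of Gls2, Ncald and Angptl6 were fractional in 8, 8 and 7 libraries. In the GENCODE annotation 35 of the 40 kept genes are protein coding, and 13 share an exon stretch with a gene on either strand.

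Genes known from endothelium were kept lower as well; apart from Gpr182 they were grouped by general knowledge after their values were seen. Gpr182 (ENSMUSG00000058396, chr10:127747276-127751732), an atypical chemokine receptor of sinusoidal endothelium and a member of the endothelial marker list, was at 16.6, 13.7 and 21.4 CPM in Tom- oil, 21.8, 16.6 and 27.3 in Tom+ oil, 38.02, 38.8 and 36.3 in Tom- CCl4 and 16.97, 18.3 and 21.0 in Tom+ CCl4. Tom- CCl4 was the group that stood apart, above all 9 other libraries. Its interaction was -1.35 ± 0.25 with the labels as deposited (adjusted p = 0.02595) and -1.36 ± 0.25 with the exchange (adjusted p = 0.0312). Flt1 and Flt4, receptors for vascular endothelial growth factors, had the same order. Flt1 (ENSMUSG00000029648, chr5:147561604-147726011) was at 14.3, 14.8 and 14.6 CPM in Tom- CCl4 and 5.6, 7.51 and 8.47 in Tom+ CCl4, with oil between 5.697 and 11.1. Flt4 (ENSMUSG00000020357, chr11:49609263-49652739) was at 35.4, 31.4 and 31.5 CPM in Tom- CCl4 against 15.4, 18.9 and 18.7 in Tom+ CCl4, with oil between 14.3 and 26.4. Both were thus highest in Tom- CCl4 with Tom+ CCl4 inside or below the oil range. The interactions were -1.4 ± 0.28 and -1.35 ± 0.29 for Flt1 (adjusted p = 0.0312 and 0.0484) and -1.16 ± 0.26 and -1.33 ± 0.22 for Flt4 (adjusted p = 0.0487 and 0.0215). Plxnd1, a semaphorin receptor of vessels, was at 32.4, 33.98 and 30.6 CPM in Tom- CCl4 and 17.4, 18.1 and 19.7 in Tom+ CCl4, and its interactions were -1.22 ± 0.19 and -1.08 ± 0.22 (adjusted p = 0.0107 and 0.0427). Arhgef15, a guanine nucleotide exchange factor of vascular cells, was at 8.04, 7.71 and 7.203 CPM in Tom- CCl4 against 4.15, 3.91 and 4.404 in Tom+ CCl4, with interactions of -1.36 ± 0.25 and -1.4 ± 0.24 (adjusted p = 0.0255 and 0.0258). Lama4, a laminin of vessel basement membrane, was at 4.65, 4.56 and 4.44 CPM in Tom- CCl4 against 2.22, 2.05 and 3.03 in Tom+ CCl4, with interactions of -1.43 ± 0.31 and -1.48 ± 0.3 (adjusted p = 0.0445 and 0.0421). The netrin Ntn4 spanned 6.75 to 9.76 CPM in Tom- CCl4 and 2.55 to 4.53 in Tom+ CCl4, and the BMP-binding protein Bmper 9.86 to 10.5 and 3.297 to 5.24. Their interactions were -1.5 ± 0.34 and -1.67 ± 0.31 (adjusted p = 0.0485 and 0.0312) and -1.3 ± 0.26 and -1.26 ± 0.26 (adjusted p = 0.0329 and 0.0461).

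The endothelial marker list as a whole ran in parallel. The 15 markers summed to 206 to 308 CPM in Tom- oil, 228 to 379 in Tom+ oil, 532 to 556 in Tom- CCl4 and 269 to 367 in Tom+ CCl4, and none was at 0 in any group. All 15 had a negative interaction under both labelings, with a median of -1.02 and -1.13 (all genes: -0.0059 and -0.017), and 4 and 6 were called lower (0.958% and 0.374% of all genes). Only Gpr182 of the 15 was called in both (0.181% of all genes were kept lower), and 8 were called, all lower, without the 2 libraries whose labels were exchanged (0.496% of all genes). Pecam1, the adhesion molecule that defines endothelium, was at 9.15, 5.35 and 8.99 CPM in Tom- oil, 9.45, 6.36 and 10.4 in Tom+ oil, 18.4, 17.0 and 18.4 in Tom- CCl4 and 6.23, 9.67 and 11.2 in Tom+ CCl4. Its interaction was -1.16 ± 0.35 as deposited (adjusted p = 0.106, edgeR) and -1.49 ± 0.29 with the exchange (adjusted p = 0.0365). Markers of stellate cells and fibroblasts (14 tested) and of Kupffer cells and macrophages (15 tested) had medians of -0.85 and -0.75, and of -0.90 and -0.59, with no gene called under either labeling. Their summed levels spanned 101 to 130 CPM in Tom- CCl4 against 67.8 to 144 in Tom+ CCl4 for the first, and 147 to 181 against 83.9 to 250.3 for the second. The part of these cells in the interaction of the endothelial genes, and of the other kept genes, was not tested. Hepatocyte markers had medians of -0.21 and -0.27, with 0 of 15 called. Of other cell types, 1 of 7 tested cholangiocyte markers was called, Aqp1, lower with the exchange only. Its interactions were -0.86 and -1.11 (adjusted p = 0.117 and 0.043, edgeR). The cholangiocyte markers Krt19, Krt7 and Epcam did not pass the filter on low counts. Of lymphocyte markers 0 of 3 and of erythroid markers 0 of 5 were called.

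The 9 genes kept higher were above Tom- in every Tom+ library of CCl4. In oil their Tom+ minus Tom- differences were below 0 under both labelings. None of these oil differences was called (0.00% of all genes as deposited and 0.0292% with the exchange). Cdkn1c (ENSMUSG00000037664, chr7:143458339-143461050) encodes p57, an inhibitor of cyclin-dependent kinases. Cdkn1c was at 2.43, 2.85 and 2.55 CPM in Tom- oil, 1.37, 2.04 and 1.27 in Tom+ oil, 8.77, 10.2 and 9.59 in Tom- CCl4 and 17.6, 19.6 and 16.5 in Tom+ CCl4. All CCl4 libraries were above all oil libraries, Tom+ was above Tom- in CCl4, and in oil the 3 Tom+ libraries were below the 3 Tom- libraries as deposited. The interaction was 1.66 ± 0.23 with the labels as deposited (adjusted p = 0.00738) and 1.49 ± 0.29 with the exchange (adjusted p = 0.0342). It was the 1 kept gene among the 31 cyclin-dependent kinase inhibitors and p53 targets, whose median interaction was -0.024 and 0.088. Anxa2 (ENSMUSG00000032231, chr9:69453620-69491795), a calcium-dependent membrane-binding protein, had a similar shape. Anxa2 was at 2.06, 3.74 and 3.98 CPM in Tom- oil, 2.02, 2.63 and 1.96 in Tom+ oil, 9.303, 7.46 and 11.3 in Tom- CCl4 and 18.2, 16.7 and 21.5 in Tom+ CCl4. In oil the 2 libraries whose labels were exchanged were at 2.06 and 2.63 CPM, so that the fractions overlapped as deposited and did not with the exchange. The interaction was 1.58 ± 0.32 with the labels as deposited (adjusted p = 0.0339) and 1.78 ± 0.26 with the exchange (adjusted p = 0.00975), and it was the 1 kept gene of the 31 tested annexin, S100 and tetraspanin genes. Car2 (ENSMUSG00000027562, chr3:14886273-14900770), carbonic anhydrase 2, was at 8.49, 11.6 and 10.4 CPM in Tom- oil, 7.54, 8.82 and 7.79 in Tom+ oil, 11.2, 13.2 and 16.98 in Tom- CCl4 and 24.8, 26.2 and 27.7 in Tom+ CCl4. The Tom+ CCl4 libraries lay above the other 9, and the interaction was 1.26 ± 0.21 with the labels as deposited (adjusted p = 0.0165) and 1.3 ± 0.2 with the exchange (adjusted p = 0.0147).

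Tenm3 (ENSMUSG00000031561, chr8:48227682-48843951), a teneurin cell adhesion protein, and Nxpe2 (ENSMUSG00000032028, chr9:48318006-48353454) had the largest positive interactions of the kept genes. Tenm3 was at 10.2, 20.99 and 15.4 CPM in Tom- oil, 8.18, 16.9 and 10.2 in Tom+ oil, 0.632, 0.663 and 1.33 in Tom- CCl4 and 2.92, 3.49 and 3.28 in Tom+ CCl4. All CCl4 libraries were below all oil libraries, the Tom- ones furthest, and the interaction was 2.25 ± 0.49 with the labels as deposited (adjusted p = 0.0477) and 2.75 ± 0.32 with the exchange (adjusted p = 0.00402). Nxpe2 was at 7.54, 16.96 and 13.4 CPM in Tom- oil, 4.74, 10.9 and 6.44 in Tom+ oil, 1.01, 1.38 and 1.99 in Tom- CCl4 and 4.31, 3.56 and 6.28 in Tom+ CCl4. Tom- CCl4 was the lowest group, Tom+ CCl4 overlapped Tom+ oil, and the interaction was 2.46 ± 0.54 with the labels as deposited (adjusted p = 0.0487) and 2.82 ± 0.39 with the exchange (adjusted p = 0.00918). Fam107b (ENSMUSG00000026655, chr2:3570488-3782142) was lower in Tom- CCl4 (27.8, 30.2 and 31.4 CPM) than in Tom+ CCl4 (45.7, 47.2 and 44.8), and in oil it was at 45.8, 51.7 and 44.2 in Tom- and 35.1, 38.5 and 38.6 in Tom+. The fractions thus changed order between treatments with no overlap in either, as deposited. Its interactions were 0.96 ± 0.12 and 0.8 ± 0.16 (adjusted p = 0.00738 and 0.0431). Ncald, a neuronal calcium sensor protein, was at 18.2, 16.6 and 19.4 CPM in Tom- CCl4 and 30.7, 31.5 and 30.6 in Tom+ CCl4, with interactions of 0.95 ± 0.18 and 1.11 ± 0.15 (adjusted p = 0.0302 and 0.00689). Akr1c20, an aldo-keto reductase, was at 50.4, 60.2 and 65.7 CPM in Tom- CCl4 against 89.4, 99.1 and 109 in Tom+ CCl4, with interactions of 0.99 ± 0.16 and 0.95 ± 0.17 (adjusted p = 0.0135 and 0.0269). Med12l, a Mediator subunit, was at 5.46, 4.37 and 6.12 CPM in Tom- CCl4 against 9.12, 10.2 and 9.52 in Tom+ CCl4, with interactions of 1.21 ± 0.25 and 1.33 ± 0.22 (adjusted p = 0.0342 and 0.0211). Of the 9 genes kept higher, Cdkn1c, Anxa2, Tenm3, Med12l and Ncald share exon stretches with other annotated genes.

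RefSeq promoter windows of 300 bases (GRCm38.p6, from 250 before to 50 after the start) were found for 24 of the 40 kept genes (not for Akr1c20, Arhgef15, Car2, Cdkn1c, Gls2, Gm15690, Gm21781, Gm28438, Gpr182, Lama4, Ncald, Plbd2, Sds, Sdsl, Vamp2 and mt-Co3) and were searched on both strands for 3 motifs. TGACNNNGC, the antioxidant response element, was in 6 of 24 (25.0%, against 14.0% of 27025 genes): Aspg, Fam107b, Gm42109, Hsd11b1, Hsd17b13 and Ntn4. TGANTCA, the AP-1 motif, was in 3 (12.5% against 8.97%), Anxa2, Fam107b and Gm42109. CTTTGAT, the TCF/LEF motif of Wnt signalling, was in 1 (4.17% against 4.29%), Zfp715. The first 2 motifs can overlap, and these matches are letters in a window and no measure of binding. The 250 bases before the start are shown for a kept higher gene with an AP-1 match (Anxa2, chr9:69453433-69453682, plus strand), a kept lower enzyme with an antioxidant response element match (Aspg, chr12:112106433-112106682, plus strand) and one with none (Ftcd, chr10:76575398-76575647, plus strand), 5′ to 3′ with matches in capitals.
Anxa2: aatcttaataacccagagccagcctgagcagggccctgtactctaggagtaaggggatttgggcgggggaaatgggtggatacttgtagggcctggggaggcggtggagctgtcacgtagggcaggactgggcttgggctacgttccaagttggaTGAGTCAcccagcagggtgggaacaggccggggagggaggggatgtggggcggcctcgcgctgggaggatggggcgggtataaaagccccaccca
Aspg: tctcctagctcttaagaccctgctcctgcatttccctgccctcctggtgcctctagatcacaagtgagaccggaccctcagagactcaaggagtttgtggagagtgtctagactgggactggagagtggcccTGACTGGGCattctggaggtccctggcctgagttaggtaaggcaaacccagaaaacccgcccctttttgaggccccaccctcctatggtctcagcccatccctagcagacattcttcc
Ftcd: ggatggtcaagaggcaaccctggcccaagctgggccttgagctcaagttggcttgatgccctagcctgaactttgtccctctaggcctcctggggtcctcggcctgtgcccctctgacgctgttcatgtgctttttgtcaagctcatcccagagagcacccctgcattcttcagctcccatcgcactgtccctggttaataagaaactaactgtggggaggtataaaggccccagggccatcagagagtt

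The interaction of the kept genes lay largely on the CCl4 side, which the rule for keeping a gene favours. In CCl4, 336 genes (1.96%) differed between the fractions, 38 higher (0.222%) and 298 lower (1.74%) in Tom+ cells (edgeR quasi-likelihood test, labels as deposited), and 37 of the 40 kept genes were among them, 8 higher and 29 lower. The interaction contains this difference, and the exchange moves oil labels only. A call under both labelings thus favours genes whose difference lies in CCl4. The values in this paragraph describe the kept genes and are no separate evidence. All 40 had fractions that did not overlap in CCl4 (28.7% of all genes). In oil no kept gene was called under either labeling, where 0.00% of all genes were as deposited and 0.0292% with the exchange. The fractions did not overlap there for 3 of the 40 as deposited (11.7% of all genes) and for 17 with the exchange (12.9%). The median absolute difference of the 40 was 1.0 (log2) in CCl4, 0.19 in oil as deposited and 0.25 in oil with the exchange, and each of the 40 had a larger difference in CCl4 than in oil under both labelings. The oil difference had the opposite sign to the CCl4 difference in 35 genes as deposited, in 34 with the exchange and in 31 under both.

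**Figure D4:**
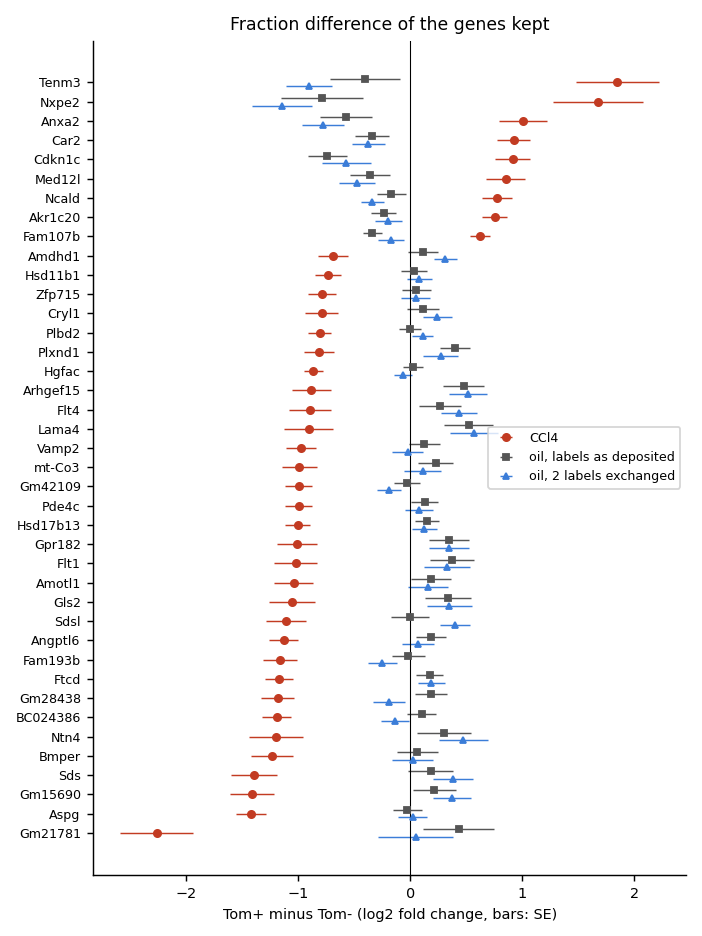
Tom+ minus Tom- difference (log2, bars are SE, 3 libraries per group) of the 40 kept genes in CCl4 (circles), in oil with the labels as deposited (squares) and in oil with 2 labels exchanged (triangles). The CCl4 differences lie apart from 0 on both sides, and the oil differences lie near 0 or on the other side under both labelings.

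Oil itself depended on the labels. With the labels as deposited 0 genes (0.00%) differed between the fractions in oil (edgeR; 1198 genes had an unadjusted p under 0.05), and with the exchange 5 did (0.0292%). The reporter, which chose the exchange, was the 1 gene higher in Tom+ (0.00584%), and Slc13a3, Slc1a4, Npr2 and Icosl were lower (0.0234%). Slc13a3 (ENSMUSG00000018459, chr2:165405028-165473230), a dicarboxylate transporter, was at 2.505, 28.6 and 13.8 CPM in Tom- oil and 1.89, 17.5 and 2.11 in Tom+ oil as deposited. Tom- oil replicate 1 was thus as low as Tom+ oil 1 and 3, and Tom+ oil replicate 2 lay between Tom- oil 2 and 3. Slc1a4, a neutral amino acid transporter, was at 3.61, 13.3 and 9.52 CPM in Tom- oil against 3.22, 11.3 and 2.595 in Tom+ oil, and Npr2, a natriuretic peptide receptor, at 30.9, 83.9 and 59.8 against 36.7, 65.2 and 35.9. Icosl, a ligand of T cell costimulation, was at 1.13, 3.57 and 4.64 CPM in Tom- oil against 1.33, 2.79 and 1.32 in Tom+ oil. All 4 had an interaction called with the exchange only. The study's volcano plot of oil (DESeq2, same thresholds) shows more called genes than either labeling gave here, most of them lower in Tom+ cells. It labels tdTomato, Glul, Lgr5, Slc1a2, Rps27a and Tff3. Oil differences fitted here, as deposited and with the exchange, were -1.025 and -2.3 for Glul and -1.44 and -3.26 for Slc1a2. They were -0.016 and 0.94 for Rps27a and 0.13 and 1.14 for Tff3, and none of these was called. The labels behind the study's plot are not stated, and the difference was not tested.

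Of the 27 lists, zone 3 differed most between the labelings in its number of calls. None of the 32 was kept, whereas with the replicate block described further on 20 of the 32 were called under both labelings, all higher (0.870% of all genes). Without the block, with the exchange 15 were called, all higher (46.9% of the list against 0.327% of all genes), and as deposited 2 (Aldh1a1 and Rgn; 0.216% of all genes) were. The median interaction of the 32 was 1.17 as deposited and 1.56 with the exchange (all genes: -0.0059 and -0.017), with a median difference between the fractions of 0.74 in CCl4 and of -0.52 and -0.94 in oil. Under both labelings 30 of 32 were positive. The summed level of the 32 was 6168, 10985 and 7552 CPM in Tom- oil and 3553, 6893 and 4828 in Tom+ oil as deposited, and the exchange, which moves the first library of the former and the second of the latter, leaves no overlap between the fractions. In CCl4 it was 5758, 9387 and 10494 in Tom- and 9421, 14294 and 16779 in Tom+. Glul (ENSMUSG00000026473, chr1:153899944-153909723), glutamine synthetase of the innermost hepatocytes, was at 48.2, 320.2 and 119 CPM in Tom- oil, 34.3, 165 and 40.3 in Tom+ oil, 84.4, 92.1 and 223 in Tom- CCl4 and 384, 224 and 468 in Tom+ CCl4. Its interaction was 2.45 ± 1.17 with the labels as deposited (adjusted p = 0.3096) and 3.73 ± 0.69 with the exchange (adjusted p = 0.049). Lgr5 (ENSMUSG00000020140, chr10:115450311-115587780), a receptor that amplifies Wnt signals, followed Glul. Lgr5 was at 1.03, 5.29 and 3.35 CPM in Tom- oil, 0.347, 2.71 and 0.735 in Tom+ oil, 2.07, 3.84 and 7.14 in Tom- CCl4 and 10.02, 10.1 and 14.9 in Tom+ CCl4. In CCl4 its Tom+ libraries were above its Tom- libraries, and in oil the fitted difference was below 0 under both labelings (-1.37 and -2.49), with the fractions overlapping as deposited and not with the exchange. The interaction was 2.79 ± 1.09 with the labels as deposited (adjusted p = 0.218) and 3.9 ± 0.66 with the exchange (adjusted p = 0.0279). Slc1a2, a glutamate transporter, was at 7.83, 99.4 and 52.1 CPM in Tom- oil and 4.43, 46.03 and 8.52 in Tom+ oil, and its interactions were 2.78 ± 1.48 and 4.61 ± 0.76 (adjusted p = 0.356 and 0.03298). Slc13a3 had 2.43 ± 1.33 and 4.57 ± 0.41 (adjusted p = 0.3704 and 0.00262), and Axin2, a feedback inhibitor and target of Wnt signalling, 1.92 ± 0.61 and 2.58 ± 0.4 (adjusted p = 0.132 and 0.0171). The exchange raised these values and lowered their SE in each case. Cyp2e1, the P450 that activates CCl4, was called under neither labeling without the block and under both with it, with 2.14 ± 0.56 and 2.19 ± 0.54 without it (adjusted p = 0.0893 and 0.103). Other zone 3 genes called with the exchange only included Ahr, Avpr1a, Cyp7a1, Gulo, Oat, Rhbg, Rnf43, Slc1a4 and Tbx3. With the 2 libraries left out, 13 of the 32 were called, all higher (0.354% of all genes), with a median of 1.77.

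**Figure D5:**
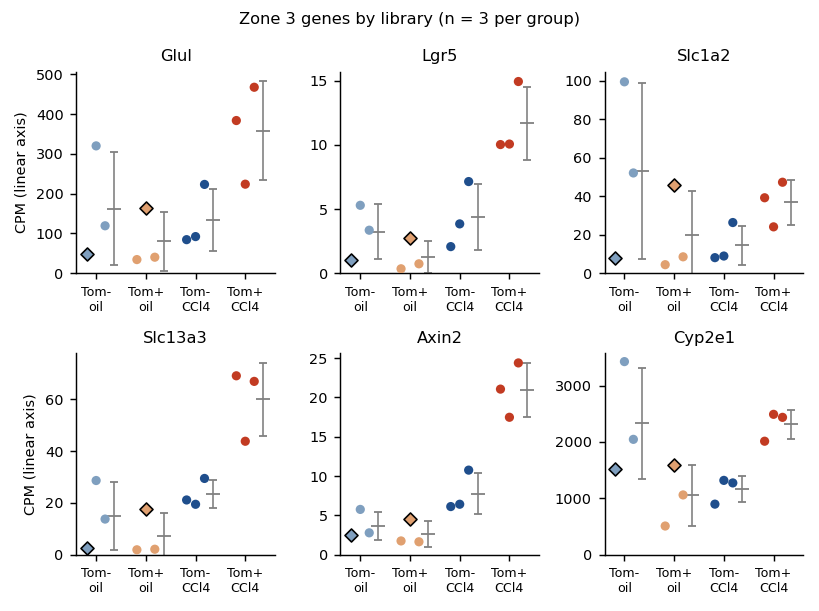
Levels (CPM, linear axes from 0) of 6 zone 3 genes in each library, by deposited group, with the mean and SD of the 3 libraries beside them. The diamonds are the 2 libraries with exchanged labels; in Slc13a3 the one labelled Tom- oil is at 2.5 CPM with the low Tom+ oil libraries and the one labelled Tom+ oil is at 17.5 CPM with the high Tom- oil libraries.

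Most zone 1 genes had interactions of the opposite sign to zone 3. With the replicate block 14 of the 32 tested were called under both labelings, all lower (2.08% of all genes). In the fits without the block, which the rest of this paragraph gives, 4 were kept, all lower (12.5%, against 0.181%). They were Ftcd, Gls2, Hsd17b13 and Sds, 3 of which are also in the amino acid list. The median interaction was -0.61 as deposited and -0.71 with the exchange, the median difference between the fractions was -0.57 in CCl4 and 0.14 and 0.17 in oil, and 30 and 31 of the 32 were negative. Cdh1 and Ctsc were called as deposited only, and Asl, Ass1 and Etnppl with the exchange only. Ass1, argininosuccinate synthase of the urea cycle, had -0.78 ± 0.26 and -1.0 ± 0.21 (adjusted p = 0.1298 and 0.0493). Cdh1, E-cadherin, had -1.49 ± 0.22 and -0.95 ± 0.32 (adjusted p = 0.009504 and 0.208). Hal, the first enzyme of histidine breakdown, and Cyp2f2, a periportal P450, were called under neither labeling, with -1.25 ± 0.39 and -1.3 ± 0.38 (adjusted p = 0.124 and 0.151) and -1.82 ± 0.46 and -1.54 ± 0.49 (adjusted p = 0.0809 and 0.197).

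The other function lists held few or no kept genes in the fits without the replicate block. Over all genes, 1.17% were called as deposited and 0.701% with the exchange. The 57 tested cytochrome P450 genes had 0 kept and 1 called (Cyp4b1, lower with the exchange), with medians of 0.0049 and 0.17. The 44 glutathione and NRF2 antioxidant genes had 0 kept, with Gsta3 higher as deposited only. The 26 Wnt pathway genes had 0 kept, and 5 called higher with the exchange (Axin2, Lgr5, Rnf43, Sp5 and Tbx3; 19.2% of the list against 0.327% of all genes), of which Axin2, Lgr5, Rnf43 and Tbx3 are in the zone 3 list as well. The 34 fatty acid oxidation genes had 0 kept and medians of 0.44 and 0.28, with Bdh1 higher as deposited only. The 41 cell cycle genes had 0 called and medians of 0.48 and 0.43. The median of the 35 sterol and fatty acid synthesis genes changed sign with the labels, from -0.13 to 0.35, with Hmgcs1 called higher with the exchange only. That of the 20 tested major urinary protein genes also did, from 0.047 to -0.45, with 0 called. The 37 tested secretory phenotype genes had medians of -0.42 and -0.38, with Vegfa lower as deposited only, and the 15 genes of the IL-6 family had medians of -0.22 and -0.086 with 0 called. Acute phase, complement and coagulation genes (51 tested) had medians of -0.33 and -0.27 with 0 called. Midlobular zone 2 genes (8 tested), chaperones of the endoplasmic reticulum (24), sulfotransferases and glucuronosyltransferases (26), clock genes (20), STAT5 genes (29) and cytoskeleton genes (36) had 0 called under either labeling. Among the remaining lists, Gckr, Akr1c6, Ier5, Pparg and Stat2 were called as deposited only, and Abcc4, Cyp7a1, Vldlr, Ahr and Tbx3 with the exchange only. With the block, 13 P450 genes were called higher and 3 lower under both labelings (0.870% and 2.08% of all genes), some of them zone 3 genes. Of the cell cycle genes 5 were higher and 1 lower there, and of the STAT5 genes 4 and 2. The Wnt list had 6 higher, and the antioxidant and fatty acid oxidation lists 4 each. Zone 2, IL-6 family and endoplasmic reticulum genes had 0.

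Genes called under the deposited labels alone numbered 161. Neat1, a nuclear long noncoding RNA, and Gm28006, Gm27533 and Gm27505 were among those whose value moved most between labelings. The last 3 lie within Neat1 on the same strand, and counts of these transcripts were not whole in 7 to 10 libraries, so that they may describe a single locus. Without both libraries whose labels were exchanged all of them were called lower, Neat1 with -2.35 ± 0.40 (adjusted p = 0.0381, edgeR). Neat1 was at 47.9, 74.8 and 71.5 CPM in Tom- oil, 122, 203 and 71.01 in Tom+ oil, 132, 198 and 247 in Tom- CCl4 and 48.99, 44.01 and 56.1 in Tom+ CCl4. The library labelled Tom+ oil replicate 2 was the highest of the oil libraries, and the interaction was -2.98 ± 0.52 with the labels as deposited (adjusted p = 0.0339) and -1.42 ± 0.66 with the exchange (adjusted p = 0.424). Sybu, a kinesin adaptor, had -2.62 ± 0.56 and -0.73 ± 1.03 (adjusted p = 0.0393 and 0.859). Genes called with the exchange alone numbered 80, among them Rcan2, a calcineurin regulator, with 3.57 ± 1.59 and 5.15 ± 0.91 (adjusted p = 0.27 and 0.0299), and Ccn5, a matricellular protein, with 1.35 ± 1.09 and 3.52 ± 0.64 (adjusted p = 0.5499 and 0.0275). Gm13872, which lies within Slc1a2 on the other strand, had 3.32 ± 1.39 and 5.13 ± 0.69 (adjusted p = 0.245 and 0.00796).

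Of 29 tested genes that the study names for Tom+ or zoned hepatocytes, 3 were kept (Anxa2, Cdkn1c and Sds). As deposited only, 1 was called (Gsta3), with the exchange only 3 (Glul, Lgr5 and Slc1a2), and 22 in neither. Over all genes 0.234% were kept, and 1.17% and 0.701% were called as deposited and with the exchange. With the replicate block described further on, 11 of the 29 were called under both labelings (2.95% of all genes). Lif did not pass the filter on low counts. The study names these genes for differences between Tom+ and Tom- cells or as zone markers. An interaction is another measure, so that these counts are no test of what the study reports. Wee1, a kinase that holds cells before mitosis, was at 1.84, 1.19 and 2.11 CPM in Tom- CCl4 and 3.41, 4.69 and 6.03 in Tom+ CCl4, with interactions of 1.66 ± 0.41 and 1.08 ± 0.4 (adjusted p = 0.0612 and 0.248). Nqo1, a quinone reductase of the antioxidant response, had 0.78 ± 0.38 and 1.0 ± 0.34 (adjusted p = 0.288 and 0.1998), and the glutathione transferases Gsta3 and Gstm1 had 0.85 ± 0.2 and 0.74 ± 0.21 (adjusted p = 0.0493 and 0.128) and 0.82 ± 0.5 and 0.91 ± 0.49 (adjusted p = 0.417 and 0.508). Gstm3 and Gpx3 were called under neither, with 1.08 ± 1.12 and 2.03 ± 1.02 and 0.87 ± 0.6 and 0.82 ± 0.6. Among ligands, Wnt5a had 0.97 ± 0.73 and 2.14 ± 0.63 (adjusted p = 0.513 and 0.1395) and, of the IL-6 family, Ctf1 0.66 ± 0.35 and -0.044 ± 0.37 (adjusted p = 0.339 and 0.98) and Clcf1 -1.99 ± 0.62 and -0.89 ± 0.58 (adjusted p = 0.115 and 0.598), so that Ctf1 changed sign with the labels and neither was called. Cdkn2a itself was at 0.0791, 0.0194 and 0 CPM in Tom- oil, 0.116, 0.0191 and 0.0735 in Tom+ oil, 0.455, 0.221 and 0.444 in Tom- CCl4 and 0.0738, 0 and 0.0209 in Tom+ CCl4. With 3 counts standing for 0.0369 to 0.0829 CPM, the levels outside Tom- CCl4 were near this limit, and the interaction was called under neither labeling (adjusted p = 0.136 and 0.0664). In CCl4 Cdkn2a was lower in Tom+ than in Tom-, at -3.27 (adjusted p = 0.0624 as deposited and 0.0379 in the exchanged fit, edgeR). This rested on 18, 8 and 21 counts in Tom- CCl4 and 6, 0 and 1 in Tom+ CCl4. The study's qPCR found p16Ink4a higher in Tom+ hepatocytes, in cells taken days after the last CCl4 dose. That schedule is drawn apart from the one cited for these libraries, so the times may differ. The gene does not encode p16Ink4a alone, as the study states for human CDKN2A, and the reason for the difference was not tested.

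Libraries with the same number deviated together, and a replicate block raised the counts. With the block 938 genes (5.48%) were called as deposited, 753 (4.40%) with the exchange, and 505 (2.95%) under both, 149 higher (0.870%) and 356 lower (2.08%), and these included all 40 kept genes. There the 2 exchanged libraries also exchanged numbers. Where they kept their own numbers instead, 62 genes were called with the exchange and 55 under both, 18 of them among the 40. In the former fit 20 of the 32 zone 3 genes were called under both labelings, all higher, and 14 of the 32 zone 1 genes, all lower. Among the genes named above, Glul had 2.51 and 3.7 (adjusted p = 0.0297 and 0.0168) with the block, Lgr5 3.01 and 4.02 (adjusted p = 0.000275 and 4.13e-07) and Cyp2e1 2.22 and 2.26 (adjusted p = 4.10e-06 and 2.70e-05). Hal had -1.3 and -1.33 (adjusted p = 2.60e-05 and 3.12e-07) and Cyp2f2 -1.78 and -1.56 (adjusted p = 9.61e-06 and 4.01e-07), and Wee1 1.64 and 1.09 (adjusted p = 0.01297 and 0.0348), Nqo1 0.83 and 1.03 (adjusted p = 0.0168 and 0.000535) and Gstm1 0.85 and 0.93 (adjusted p = 0.000117 and 6.89e-07), so that these 8 were called under both with the block. Of the 15 endothelial markers 14 were, all lower. The count of 40 was not stable to leaving out 1 library. It was 5 without the library labelled Tom- oil 2, Tom+ oil 1, Tom- CCl4 2 or Tom+ CCl4 2, 12 without Tom+ oil 3, 19 without Tom+ CCl4 3, 23 without Tom+ CCl4 1, and 34 to 54 without any of the others. The genes called also changed. In the runs with 34 to 54 calls, only 20 to 28 of the 40 kept genes were among them. Without Tom- CCl4 1 the count was again 40, with 20 of the same genes. Ftcd, Aspg and Hsd17b13 were called under both labelings whichever library was left out and in every other alternative tried. Without both libraries that the reporter singled out, 149 of 17525 genes (0.850%) were called, 62 higher (0.354%) and 87 lower (0.496%), with 31 of the 40 among them. The 9 not called there were Amotl1, Bmper, Cryl1, Fam193b, Gm42109, Hsd11b1, Ntn4, Vamp2 and Zfp715.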

How the data were processed

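The 12 libraries of bulk RNA-seq were grouped by the labels, in 4 groups of 3 by treatment and fraction. Per the labels and the methods, the authors used fastp (v0.23.2) for read quality and HISAT2 (v2.1.0) for alignment to mm10, with DESeq2 (v1.42.1) for their own tests; the counter, its strand setting and the annotation are not given in the sources used here. The deposited values are expected counts per gene, not normalized, and 30.4% to 32.9% of the non-zero values per library were not whole, so that they were rounded before any test, where whole counts had been assumed. All 12 sample columns were used, and 54723 of 54839 identifiers (99.8%) matched a symbol.

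Counts were tested with edgeR (v4.0.16, under R v4.3.3). The fit used TMM, filterByExpr by group (17121 genes passed), and a robust quasi-likelihood fit with a coefficient per group. A call needed an adjusted p-value under 0.05 and a log2 value beyond 0.75, the study's thresholds, and a gene was kept when called with the same sign under both labelings. CPM values are TMM-scaled and errors of log2 values are SE of the fit. A level of 3 counts corresponds to 0.0369 to 0.0829 CPM, a limit that covers counting error only. Same-numbered Tom+ and Tom- libraries correlated in their deviations from group means at 0.541 to 0.723 in CCl4 and 0.354 to 0.586 in oil (0.681 to 0.738 with numbers exchanged together with the labels), and libraries with different numbers at a mean of -0.32 and -0.24. Deviations from a group mean cancel out within the group, so that the negative means largely follow from the positive values and are no separate evidence. Because of the correlation of same-numbered libraries, the numbers were used as a block in an alternative fit. The numbers come from the titles, which do not tie them to a mouse.

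The comparison, gene lists and rules were chosen with earlier results of these data known. Named genes were the 12 kept genes per direction with the largest smaller interaction and at least 1 CPM, up to 6 kept genes per function list, genes the study names, 5 per direction that moved most between labelings, and counts of 5 or fewer; other kept genes were named after their values were seen. Alternatives were DESeq2 (v1.42.0), limma-voom (limma v3.58.1), RLE normalization, filters, the block, and leaving out libraries. Gene types and exon overlaps come from GENCODE M21 and the deposited positions, promoters from RefSeq. Figures were drawn with matplotlib (v3.10.9). The single-cell data of the study were not analysed here. Some listed genes are counted in their lists but not reported here by name.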

Additional observations from a re-analysis of the deposited data

Results flagged for a closer look

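The effect of the fraction differed between CCl4 and oil by the interaction test for 201 genes with the labels as deposited, for 120 with the 2 oil labels exchanged and for 40 under both. For each of the 40, the interaction (log2, edgeR) was computed again without the 2 libraries whose reporter went against their labels. Among those higher it was Akr1c20 1.07, Ncald 1.15, Fam107b 1.01, Car2 1.45, Med12l 1.46, Cdkn1c 1.94, Tenm3 2.84, Nxpe2 3.13 and Anxa2 1.96. For the amino acid enzymes it was Ftcd -1.44, Sds -1.82, Sdsl -1.41, Gls2 -1.6, Amdhd1 -1.01 and Aspg -1.42. For the genes known from endothelium it was Gpr182 -1.49, Flt1 -1.51, Flt4 -1.37, Plxnd1 -1.29, Arhgef15 -1.62, Lama4 -1.68, Ntn4 -1.76 and Bmper -1.29. For the other protein-coding genes it was Hsd11b1 -0.82, Vamp2 -1.05, Fam193b -0.96, Cryl1 -1.05, Hgfac -0.83, Hsd17b13 -1.21, Plbd2 -0.89, Zfp715 -0.86, Pde4c -1.15, Amotl1 -1.28 and Angptl6 -1.31. For mt-Co3 and the transcripts not annotated as protein coding it was Gm15690 -1.85, Gm42109 -0.83, Gm28438 -1.18, mt-Co3 -1.26, BC024386 -1.17 and Gm21781 -2.59. All 40 kept their sign, and 31 were called.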

How the results depend on the processing

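The number of genes with an interaction depended on the test and on single libraries. As deposited, with the exchange and under both, the counts were 583, 422 and 240 with DESeq2 and 938, 753 and 505 with the replicate block. With the block but with the exchanged libraries keeping their own numbers, the exchanged count was 62 and 55 genes were called under both, 18 of them among the 40. Without any filter on low counts 63 genes were called under both, and without both libraries whose labels were exchanged 149 were. Leaving out 1 library gave 42 (without Tom+ CCl4 2) to 253 genes as deposited, 31 (without Tom+ oil 1) to 147 with the exchange and 5 to 54 under both. The fraction difference called in CCl4 rose from 336 to 682 genes with the block. In oil it rose from 0 to 40 as deposited and from 5 to 97 with the exchange, and to 8 with the exchange when only the 6 oil libraries were fitted. The cause of these differences was not tested. limma-voom (182, 132 and 43), RLE normalization (197, 120 and 40), at least 10 counts in every library (275, 126 and 54) and the adjusted p alone (265, 141 and 50) kept each count within 1.5 times. Of the 40 genes, 40 were called under both with DESeq2, RLE normalization, the stricter filter and the block, 37 without a filter and 33 with limma-voom. With 1 library left out, 5 to 28 of the 40 were. No kept gene changed sign under any alternative. Sybu, with an interaction of -0.73 with the exchange, stood between -2.04 and 0.29 when 1 library was left out, with the positive value without Tom+ oil 1. Ctf1, near 0 with the exchange, stood between -0.26 and 0.16 when 1 library was left out, at 0.34 without both exchanged libraries and at 0.0898 with the block when they kept their own numbers. Depth limited Cdkn2a and other genes near the level of 3 counts.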
